A study of Mus musculus with 4 samples.

Results

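The 9 genes described here are genes of the epidermis, the dermis and the pigment cells of skin that were counted in immune cells of healing mouse wounds. They are the pigment genes Dct, Pmel and Ptgds, the keratin genes Krt5, Krt14 and Krt10, and the collagen genes Col1a1, Col1a2 and Col3a1, and they are 9 of the 19001 genes listed in all 4 single-cell libraries. They were chosen by name, with their level and their share of positive cells per library in neutrophils, T cells and macrophages known from earlier results, to follow RNA that leukocytes are not thought to make. Levels and shares by library are therefore given as a description with no test, and the fits of differences between gates and groups further below, which use the same counts, are no independent evidence on these genes.

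Each library held cells of the skin around a full-thickness wound from 1 C57/BL6j mouse aged 6 weeks, taken on postoperative day 7. The 2 Control mice received PBS. The 2 hucMSC-Exo mice received 100 µg per injection of exosomes from human umbilical cord mesenchymal stem cells every 48 h. Both groups shared the wound, the dissociation into single cells, the lysis of red cells and the removal of dead cells, and each group gave 2 of its 6 mice. In the sample labels the tissue entries are sections of intestine, but the cell type entries and the protocols say skin, and the keratins below are genes of skin. The groups here are those of the titles. The names of the deposited matrices mark Control 1 and hucMSC-Exo 1 with the letter c and Control 2 and hucMSC-Exo 2 with the letter t, which crosses the titles' groups, so each library is given by its own value and any direction between the groups rests on the titles.

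Krt5 and Krt14 encode the keratin pair of the basal epidermis, and Krt10 encodes a keratin of the differentiating layers above it. Col1a1 and Col1a2 encode the chains of type I collagen and Col3a1 the chain of type III collagen, the main fibrillar proteins that dermal fibroblasts lay down in a wound. Dct is an enzyme of melanin synthesis and Pmel forms the fibrils of the melanosome, both typical of melanocytes, while Ptgds is a prostaglandin D synthase that several cell types can make. In droplet sequencing, RNA released from broken cells can be enclosed with an intact cell and is then counted as part of it, and a droplet can also hold more than 1 cell.

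On the mouse build GRCm38 the genes lie apart from each other, except for 3 on chromosome 11. Krt14 spans chr11:100203162-100207548 and Krt10 chr11:99385254-99389364, both on the minus strand, and Col1a1 spans chr11:94936224-94953042 on the plus strand. Krt5 lies at chr15:101707070-101712898 on the minus strand, Col1a2 at chr6:4504814-4541544 on the plus strand and Col3a1 at chr1:45311538-45349706 on the plus strand. Of the pigment genes, Dct lies at chr14:118012790-118052244 on the minus strand, Pmel at chr10:128704195-128720238 on the plus strand and Ptgds at chr2:25466709-25470046 on the minus strand. Counts were made per gene, so no exon or UTR can be told apart.

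After the filter on cell quality, 6443 of 7178 deposited cells remained, with 952 to 2074 cells and 4779405 to 11243740 unique molecules (UMIs) per library. Between 81.4% and 87.1% of the kept cells had a UMI of Ptprc, the gene of the leukocyte antigen CD45. The gates took Ptprc-positive cells with at least 2 of 8 markers of a cell type and more markers of that type than of either other type. They held 842 neutrophils (47 in Control 1, 285 in Control 2, 68 in hucMSC-Exo 1 and 442 in hucMSC-Exo 2), 2705 T cells (542, 750, 683 and 730) and 1380 macrophages (187, 533, 266 and 394). The summed level of each marker list was far higher in its own gate: the neutrophil list stood at 4810 to 7907 counts per 1000000 UMIs (CPM) in the neutrophil gate against 29.4 to 422 in the other gates, the T cell list at 7065 to 10440 against 5.81 to 52.2, and the macrophage list at 3071 to 3965 against 27.6 to 407.

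The gates differed in depth, here the number of UMIs in a cell. The median neutrophil held 1970.5 to 2247 UMIs, the median T cell 3485 to 4586.5 and the median macrophage 7085 to 8839, so that the same number of skin UMIs in a cell was a larger share of a neutrophil than of a macrophage. CPM below measures that share within a gate and library, and UMIs per 100 cells measures the amount. Values printed in a series follow the order Control 1, Control 2, hucMSC-Exo 1 and hucMSC-Exo 2.

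Cells that could have made these genes were looked for among the kept cells with no Ptprc UMI. By at least 3 of 16 other keratinocyte genes, 83, 130, 162 and 131 such cells were found, and their summed keratin level was 1158, 683, 828 and 703 CPM. In every library that was below the level of the neutrophil gate. By at least 3 of 18 other fibroblast genes, 0, 18, 7 and 13 cells were found, with 737, 387 and 625 collagen CPM in the 3 libraries that held any, where the neutrophil gate had 682, 372 and 385 CPM. By at least 2 of 7 other melanocyte genes, and more of these than of either other list, 0 cells were found in each library. The cells found by keratinocyte genes thus had keratin below the neutrophil level, and at most 18 cells in a library were found by fibroblast genes. The study separated Ptprc-positive cells by computation, and fewer cells were deposited than it states. Whether the deposited cells were already such a selection is not known. The number of source cells found therefore says nothing on the tissue. The immune cells of the gates also had a median of 3 of the 16 other keratinocyte genes. The cut of at least 3 therefore does not set keratinocytes apart, and whether any were kept cannot be told from it. For the same reason the 0 cells found by melanocyte genes do not show that no melanocyte was kept. A cell of hucMSC-Exo 1 with 5 of the 7 genes, described below, was counted by its keratinocyte genes. Droplets without a cell were not analysed here, so whether the skin UMIs came from free RNA was not tested, and they are called skin UMIs below.

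Skin UMIs were present in nearly every immune cell. At least 1 UMI of the 9 genes was found in 92.8% to 100% of the cells of a gate and library. Krt14 was the most widespread: it was detected in 89.4%, 71.6%, 82.4% and 71.7% of neutrophils, in 87.6%, 73.5%, 83.9% and 73.0% of T cells, and in 89.8%, 71.7%, 81.6% and 73.4% of macrophages. Within a library the shares of the 3 gates were nearly the same, although the median macrophage held over 3 times as many UMIs as the median neutrophil. In the Ptprc-negative cells with keratinocyte genes, of a median depth of 2491 to 3275 UMIs, Krt14 was found in 81.9%, 73.8%, 80.9% and 77.1%.

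When each cell was thinned to 1000 UMIs, with shallower cells left out, the gates came apart. The Krt14 share became 66.2%, 42.1%, 55.7% and 45.1% in neutrophils. In T cells it was 42.7%, 27.6%, 39.5% and 27.8%, and in macrophages 26.2%, 16.9%, 22.3% and 20.02%. At an equal number of UMIs the neutrophil was thus the cell most often positive and the macrophage the least often, in all 4 libraries. Thinning makes the total UMIs of cells equal, so these values compare shares of a cell's UMIs and not amounts per cell.

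**Figure D1:**
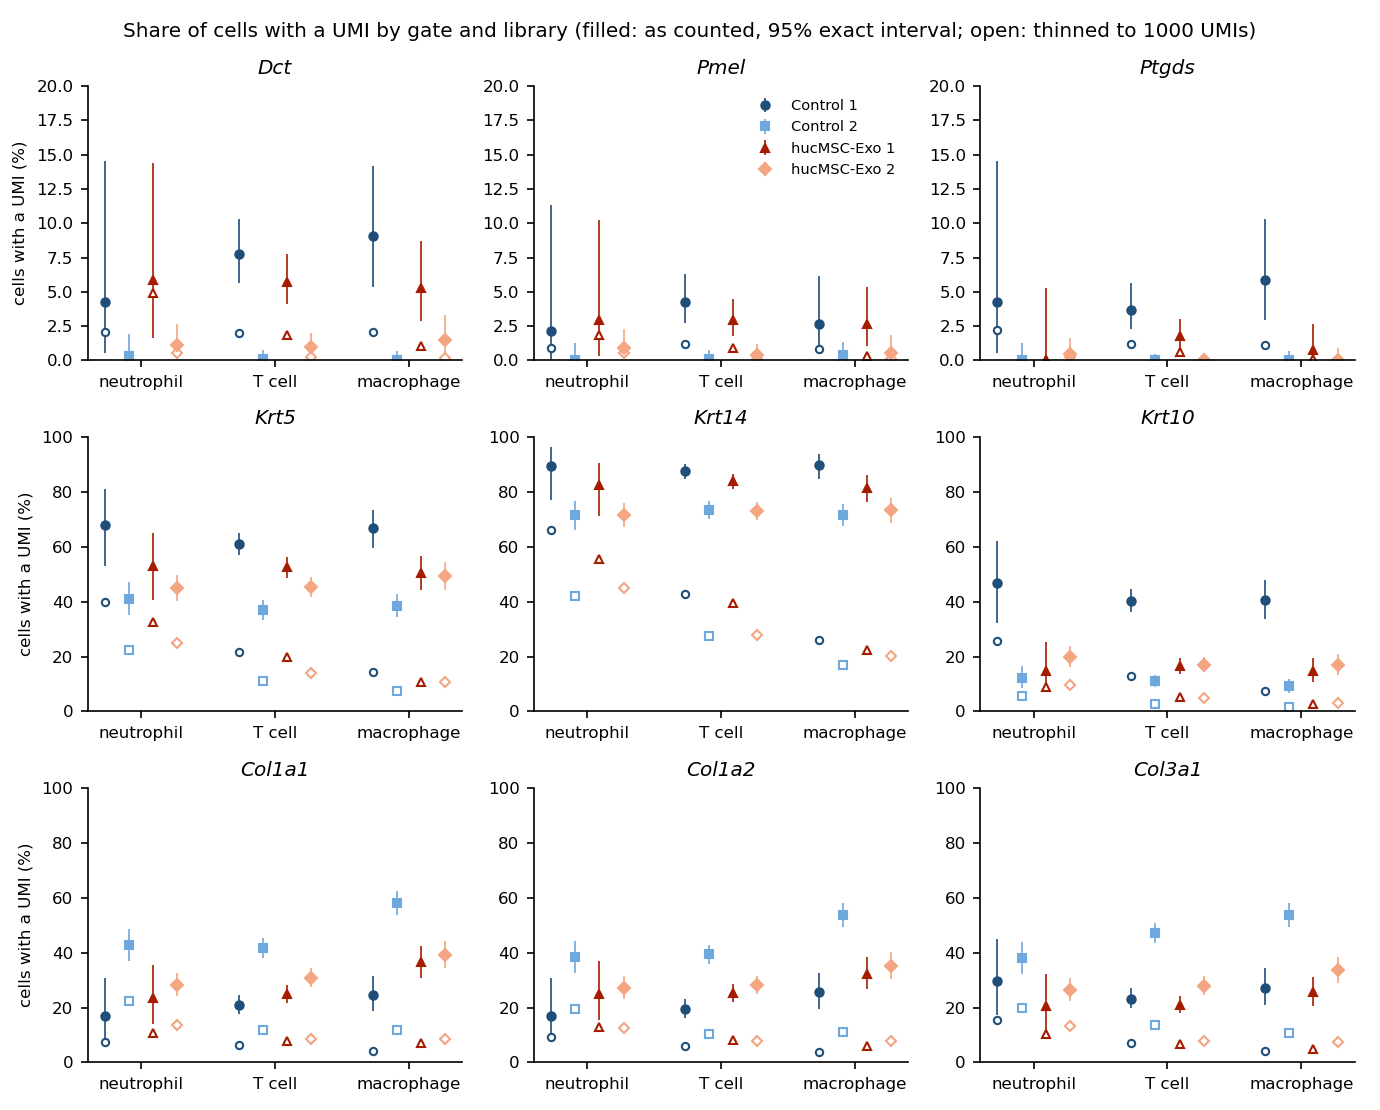
Share of cells with at least 1 UMI (y axis, %) of each of the 9 genes in the neutrophil, T cell and macrophage gates (x axis), with 1 symbol per library. Filled symbols are shares as counted with 95% exact binomial intervals, which cover counting error only, and open symbols are shares after thinning each cell to 1000 UMIs. Filled Krt14 symbols of a library lie level across the gates, from 71.6% to 89.8%, and the open ones fall from neutrophils to macrophages. The pigment panels use an axis to 20%.

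Krt5 was found in 41.1% to 68.1% of neutrophils, 36.9% to 61.1% of T cells and 38.5% to 66.8% of macrophages as counted. Krt10 was found in 12.3% to 46.8%, 10.9% to 40.4% and 9.19% to 40.6% of the cells of these gates, in each case most often in Control 1. Both keratins therefore had the even share across gates seen for Krt14.

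The collagens were less widespread. Col1a1 was found in 17.0%, 42.8%, 23.5% and 28.3% of neutrophils, in 20.8%, 41.7%, 24.9% and 30.8% of T cells, and in 24.6%, 58.2%, 36.5% and 39.1% of macrophages. Its share was highest in Control 2 in each gate. Col1a2 and Col3a1 ranged from 17.0% to 53.7% and from 20.6% to 53.8% over the 12 combinations of gate and library. As counted, Col1a1 was most often seen in the deeper macrophages, but after thinning its macrophage share of 4.11%, 11.8%, 6.95% and 8.43% was below the neutrophil share of 7.57%, 22.5%, 10.9% and 13.6%.

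The pigment genes were rare and uneven between libraries. Dct was found in 42 of 542 T cells of Control 1 (7.75%, 95% exact interval 5.64% to 10.3%) and in 39 of 683 of hucMSC-Exo 1 (5.71%, 4.09% to 7.72%). It was found in 1 of 750 T cells of Control 2 (0.133%, 0.00338% to 0.741%) and in 7 of 730 of hucMSC-Exo 2 (0.959%, 0.386% to 1.97%). These intervals cover the counting of cells only and, as each library is 1 mouse, are no test between libraries. In the macrophage gate the Dct share was 9.09%, 0%, 5.26% and 1.52%, and in the neutrophil gate 4.26%, 0.351%, 5.88% and 1.13%. The Control 2 macrophages had 0 Dct UMIs in 533 cells, where 3 UMIs would be 0.660 CPM. Thinned, Dct was seen in at most 4.91% of the cells of any gate.

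As a share of the RNA of a gate, keratin was highest in neutrophils. Krt14 stood at 1158, 837, 1237 and 740 CPM in neutrophils. It stood at 602, 291, 528 and 291 CPM in T cells and at 297, 166, 234 and 206 CPM in macrophages. The order of the gates was the same in each library, and the ranges of neutrophils and T cells over libraries did not overlap.

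Krt5 showed the same order, with 515, 367, 587 and 364 CPM in neutrophils, 247, 98.9, 204 and 134 CPM in T cells and 138, 66.3, 104 and 98.7 CPM in macrophages. Krt10 stood at 277, 64.0, 325 and 135 CPM, at 136, 28.4, 50.9 and 41.8 CPM and at 84.6, 14.1, 23.4 and 26.9 CPM in these gates. Its level thus varied more between libraries than those of Krt5 and Krt14, and its gates overlapped over libraries though they kept their order within each.

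Of the collagens, Col1a1 stood at 79.2, 250, 116 and 136 CPM in neutrophils, 91.9, 145, 72.0 and 81.6 CPM in T cells and 35.9, 106, 61.97 and 77.1 CPM in macrophages. Col1a2 stood at 99.0, 217, 128 and 122 CPM, at 72.2, 115, 80.6 and 71.7 CPM and at 37.2, 97.3, 57.8 and 64.9 CPM. Col3a1 stood at 148, 214, 128 and 127 CPM, at 73.8, 154, 64.1 and 73.4 CPM and at 42.9, 96.0, 43.2 and 64.6 CPM. Neutrophils again came first and macrophages last, apart from Col1a1 in Control 1, which was higher in T cells than in neutrophils.

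For the pigment genes, neutrophils held too few UMIs for an order: 5, 1, 9 and 11 UMIs of the 3 genes together. Dct stood at 19.8, 1.39, 40.7 and 4.35 CPM in neutrophils, 19.4, 0.261, 16.1 and 1.98 CPM in T cells and 74.3, 0, 8.85 and 2.15 CPM in macrophages. Pmel stood at 9.90, 0, 11.6 and 3.48 CPM, at 9.68, 0.261, 7.52 and 0.847 CPM and at 25.0, 0.440, 3.65 and 0.718 CPM. Ptgds was listed at 0 in 6 of the 12 gates and libraries, where 3 UMIs would be 0.660 to 17.4 CPM, among them all 3 gates of Control 2 (0.660 to 4.17 CPM), and reached 19.8 CPM in the Control 1 neutrophils. The high macrophage values of Control 1 came mainly from 1 cell, described below.

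Counted per cell, the gates came closer together. The keratin genes together gave 419, 320, 544 and 322 UMIs per 100 neutrophils, 450, 214, 320 and 226 UMIs per 100 T cells and 434, 210, 261 and 235 UMIs per 100 macrophages. The macrophage amount was 1.04, 0.655, 0.479 and 0.728 times the neutrophil amount, against 0.267, 0.194, 0.168 and 0.268 times in CPM. A few cells carried many of the keratin UMIs: 31 of the 4927 gate cells had 20 or more keratin UMIs, 8 had 20 or more collagen UMIs and 1 had 20 or more pigment UMIs. In the neutrophil gate 1, 3, 2 and 8 such cells held 14.2%, 37.8%, 55.9% and 30.7% of the keratin UMIs.

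The highest keratin cell held 229 keratin UMIs and the highest collagen cell 137 collagen UMIs. The high keratin cells had UMIs of a median of 9 of the 16 other keratinocyte genes, against 3 over all gate cells, and the high collagen cells had a median of 10.5 of the 18 other fibroblast genes, against 1. These cells thus carried further genes of the epidermis or dermis together with the immune markers of their gate. Whether they were doublets was not tested.

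Without those cells, a library had nearly the same amount of keratin in each kind of immune cell. Neutrophils then held 367, 201, 247 and 227 keratin UMIs per 100 cells. T cells held 386, 211, 274 and 223, and macrophages 406, 199, 261 and 228. The macrophage amount was 1.11, 0.990, 1.06 and 1.00 times the neutrophil amount in the 4 libraries, although the median macrophage held several times as many UMIs. The cells were left out by the same UMIs that are compared here, after the data were seen. Such a cut can itself bring the gates closer.

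The collagens did not close in the same way. Without the cells of 20 or more UMIs, neutrophils held 65.2, 164, 89.4 and 98.9 collagen UMIs per 100 cells. T cells held 82.1, 176, 88.9 and 107, and macrophages 97.3, 251, 118 and 147. The macrophage amount was 1.49, 1.53, 1.32 and 1.48 times that of the neutrophils and 1.19, 1.43, 1.32 and 1.37 times that of the T cells, above 1 in every library. For the pigment genes the same count gave 10.9, 0.356, 13.6 and 2.54 UMIs per 100 neutrophils, 17.2, 0.268, 11.4 and 1.37 per 100 T cells and 17.4, 0.377, 9.77 and 2.04 per 100 macrophages. Their order of gates differed from library to library.

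**Figure D2:**
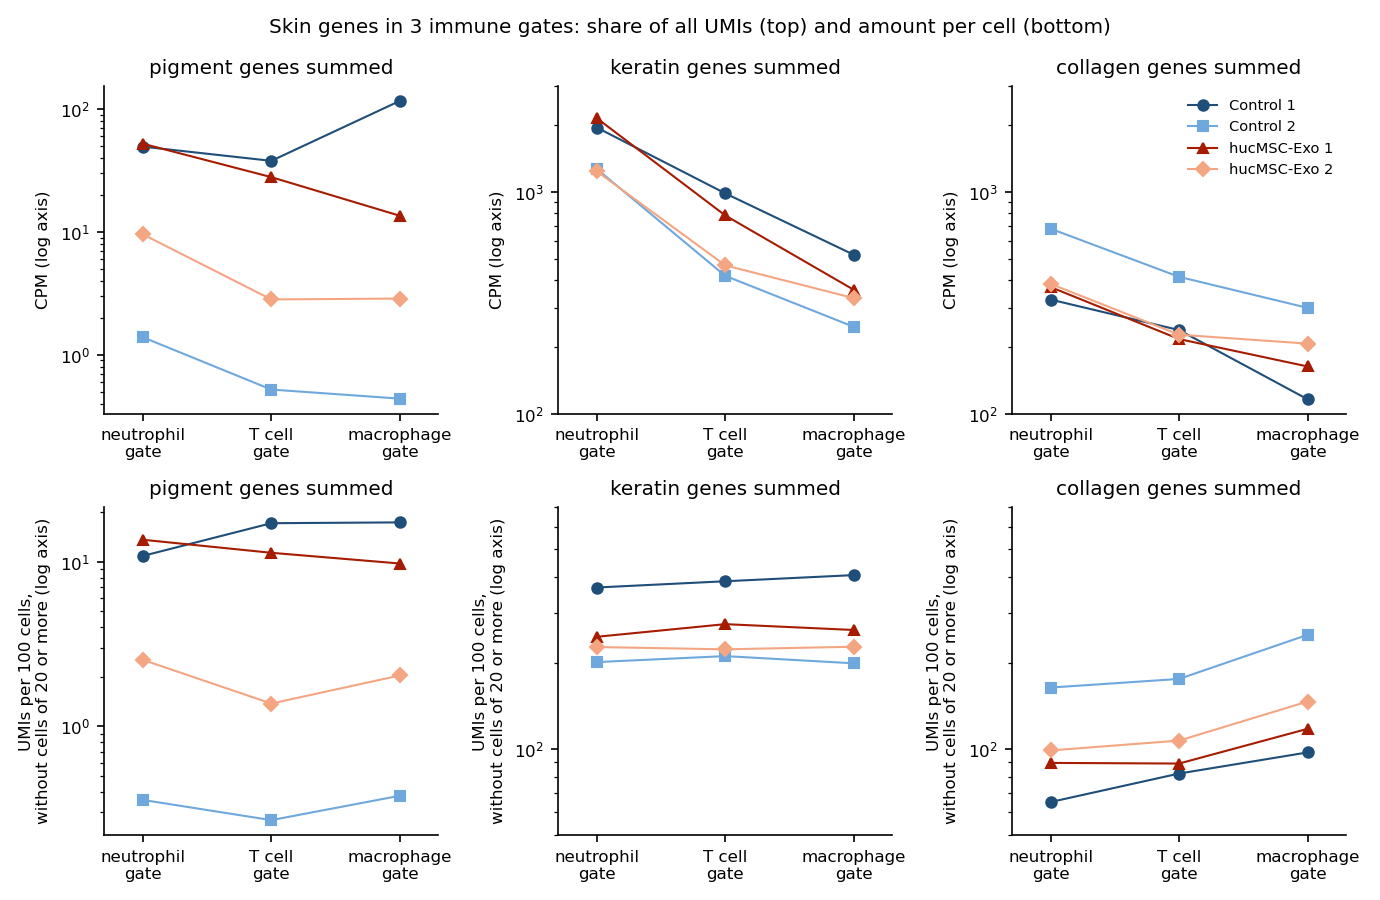
Summed pigment, keratin and collagen genes in the neutrophil, T cell and macrophage gates (x axis), with 1 line per library and log y axes. The top row gives the share of all UMIs in CPM. The bottom row gives the amount in UMIs per 100 cells without the cells of 20 or more UMIs of any class. Keratin falls from neutrophils to macrophages in CPM in all 4 libraries, for example from 1949 to 520 CPM in Control 1, and is nearly flat per cell, from 367 to 406 UMIs per 100 cells in that library. Lines join gates of a library only to guide the eye.

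The pigment UMIs of the Control 1 macrophages rested on a single cell. It held 149 pigment UMIs (98 of Dct, 35 of Pmel and 16 of Ptgds) among 11725 UMIs, together with 5 of the 8 macrophage markers and 2 of the 7 other melanocyte genes. It made up 81.9% of the pigment UMIs of that gate, and without it the summed pigment level there was 21.3 CPM in place of 117 CPM. In hucMSC-Exo 1, a cell with no Ptprc UMI held 242 pigment UMIs (111 of Dct, 55 of Pmel and 76 of Ptgds) and 5 of the 7 other melanocyte genes, and it also had at least 3 other keratinocyte genes, by which it was counted with the keratinocyte cells.

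The same contrast between share and amount was present along the depth of single cells. Over all kept cells of Control 1, the summed keratin level was 4621 CPM in cells of 500 to under 1000 UMIs, 1974 CPM up to 2000, 1423 CPM up to 4000 and 638 CPM at 4000 or more. In Control 2 it was 1912, 1049, 693 and 322 CPM, in hucMSC-Exo 1 3125, 1300, 908 and 526 CPM and in hucMSC-Exo 2 2155, 1167, 774 and 419 CPM. Each library fell in every step.

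The amount rose far less than the depth. In UMIs per 100 cells the keratins went from 342 in the shallowest cells to 451 in the deepest of Control 1. They went from 135 to 253 in Control 2, from 226 to 362 in hucMSC-Exo 1 and from 162 to 291 in hucMSC-Exo 2. The order of the libraries was the same in all 4 depth ranges, from Control 1 through hucMSC-Exo 1 and hucMSC-Exo 2 down to Control 2.

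**Figure D3:**
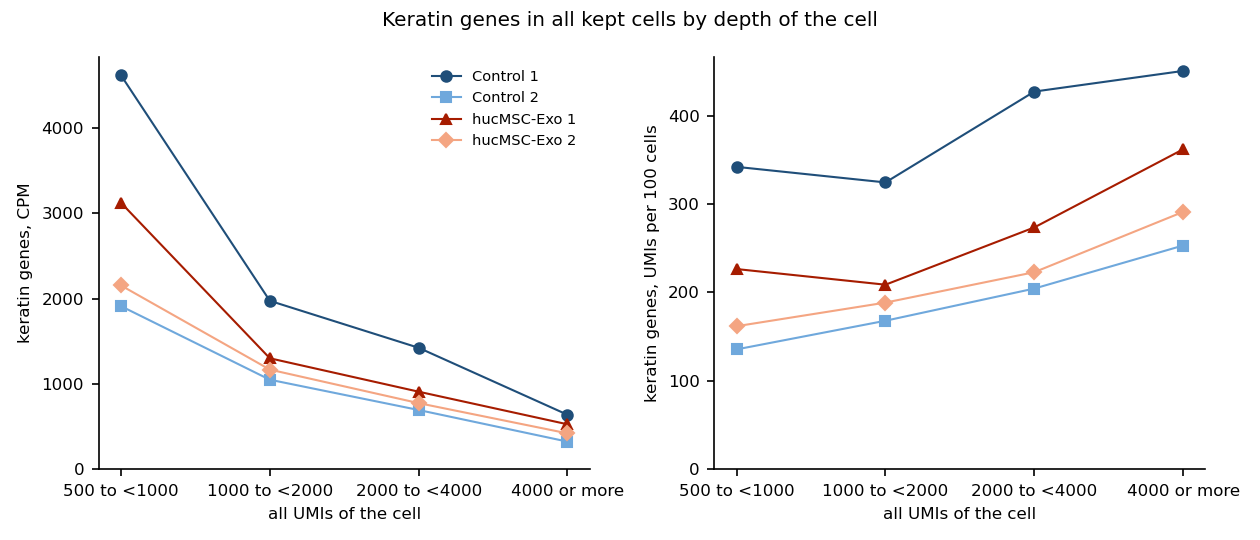
Summed Krt5, Krt14 and Krt10 in all kept cells, in 4 ranges of the total UMIs of a cell (x axis), as CPM (left) and as UMIs per 100 cells (right), with 1 line per library. CPM falls with depth, from 4621 to 638 in Control 1, while the amount per 100 cells rises from 342 to 451. Control 1 is the highest line and Control 2 the lowest at every depth.

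Differences between gates within libraries were estimated from UMIs summed per gate and library, by edgeR's quasi-likelihood fit of all genes with the library as a block. The levels of the 9 genes in these gates were known when they were chosen, so their differences are given with their SE and as counts past the threshold (Benjamini-Hochberg adjusted over all genes tested) but with no p, and nothing is read from the counts. On the usual scale, which compares shares of RNA, neutrophils had more of all 3 keratins and all 3 collagens than T cells. The log2 difference was 1.71 ± 0.23 (SE) for Krt5, 1.48 ± 0.23 for Krt14 and 1.88 ± 0.24 for Krt10. For the collagens it was 0.85 ± 0.24 for Col1a1, 0.99 ± 0.23 for Col1a2 and 1.02 ± 0.23 for Col3a1. Dct stood at 1.18 ± 0.54 and Pmel at 1.02 ± 0.72, not past the threshold, and Ptgds was too low to fit. Dct was past it where the cells of 20 or more UMIs or the 10% of cells with most UMIs were left out (1.48 and 1.47).

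So 6 of the 8 skin genes tested were past the threshold as higher in neutrophils, where 62.3% of the 8889 genes tested were called in either direction and 20.5% were called higher. The median difference of all genes was -0.61, so a gene of unchanged share stood above most genes.

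Scaled to the number of cells, the median of all genes moved to -1.80, with 84% of genes called, 75% lower and 9.06% higher in neutrophils. On this scale Krt5 (0.57 ± 0.23) and Krt10 (0.74 ± 0.25) were past the threshold, Krt14 stood at 0.34 ± 0.23 and was not, and the collagens turned to between -0.32 and -0.15 and were not. Without the cells of 20 or more UMIs as well, a scale added after the data were seen, none of the 8 skin genes tested was past it. Their differences lay between -0.17 and 0.18 there, where 85% of all genes were called, 76.3% lower and 8.68% higher, and where the median of all genes was -1.91.

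Between macrophages and T cells the share was lower for the keratins. The log2 difference was -0.37 ± 0.13 for Krt5, -0.54 ± 0.13 for Krt14 and -0.51 ± 0.14 for Krt10. These 3 of 8 skin genes tested were past edgeR's threshold, where 61% of the 9920 genes tested were called in either direction, 30.7% lower and 30.3% higher. The collagens were not, at -0.16 ± 0.19 for Col1a1, -0.09 ± 0.15 for Col1a2 and -0.22 ± 0.14 for Col3a1, and neither were Dct (1.08 ± 0.50) and Pmel (0.79 ± 0.47). Krt5 was not past it in DESeq2 (-0.38) or when Control 1, Control 2 or hucMSC-Exo 1 was left out (-0.32, -0.40 and -0.29 in edgeR), and Krt10 was not without Control 2 (-0.45).

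Per cell the keratins lay between -0.13 and 0.04, not past the threshold, while the median of all genes stood at 0.37, with 64.5% of genes called, 45.1% higher and 19.4% lower. Dct (1.53 ± 0.47) and Pmel (1.24 ± 0.46) were past it as higher in macrophages per cell, but without the cells of 20 or more UMIs, and so without the 1 Control 1 cell, Dct stood at 0.11 ± 0.32 and Pmel was too low to fit. Col1a1 (0.47 ± 0.15) and Col1a2 (0.46 ± 0.15) were then past it as higher in macrophages, beside 45.2% of all genes higher and 19.6% lower (64.8% in all), and Col3a1 stood at 0.31 ± 0.14.

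Macrophages against neutrophils gave larger differences of share. Krt5 stood at -2.47 ± 0.23, Krt14 at -2.41 ± 0.23 and Krt10 at -2.76 ± 0.28, so the keratin shares were 5.32 to 6.78 times lower in macrophages. Col1a1 stood at -1.37 ± 0.23, Col1a2 at -1.46 ± 0.22 and Col3a1 at -1.62 ± 0.22, which is 2.59 to 3.08 times lower. These 6 of the 7 skin genes tested were past edgeR's threshold, where 50.9% of 7227 genes were called, 24.3% lower and 26.6% higher. Dct stood at -0.56 ± 0.62, and at -1.86 without the cells of 20 or more UMIs.

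Per cell the direction depended on the class. With 90.8% of all genes called, 87.1% higher in macrophages, and a median of 2.13, the keratins were among the 3.68% lower in edgeR, at -0.53 ± 0.21 for Krt5, -0.47 ± 0.21 for Krt14 and -0.83 ± 0.25 for Krt10. Without the cells of 20 or more UMIs, the keratins stood between -0.17 and 0.07, not past the threshold, where 91.5% of all genes were called, 88% higher and 3.45% lower. Col1a1 was past it as higher per cell with those cells (0.61 ± 0.24) and without them (0.66 ± 0.24), as was Col1a2 (0.52 ± 0.24 and 0.59 ± 0.24). Col3a1 was not, with them (0.36 ± 0.24) or without them (0.40 ± 0.23). The summed counts cannot tell more skin UMIs in every cell from many in a few, which is why both scales are given.

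**Figure D4:**
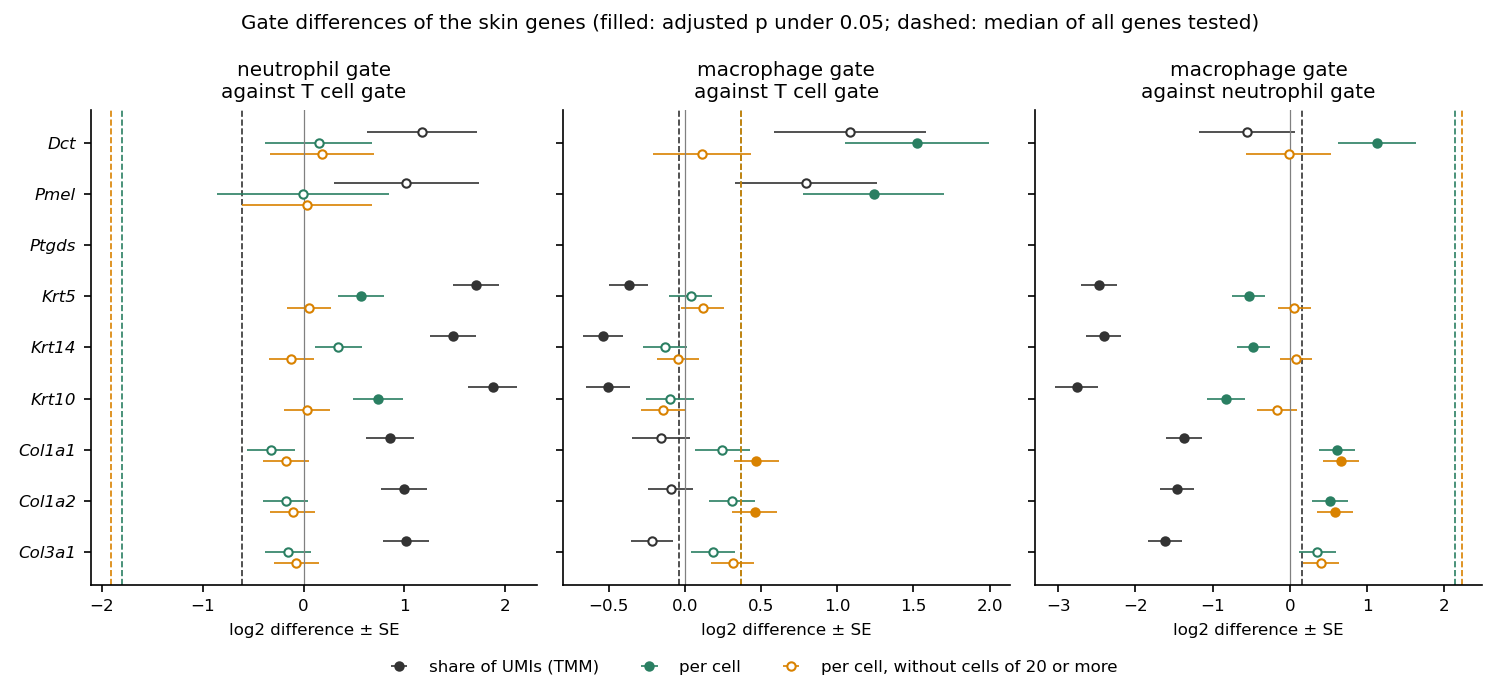
Log2 difference ± SE (x axis) of each skin gene between 2 gates, in 3 panels, as a share of UMIs (black), per cell (green) and per cell without the cells of 20 or more UMIs (orange). Filled symbols passed edgeR's test at an adjusted p under 0.05, dashed lines give the median of all genes tested on that scale, and genes too low to test are left blank. The keratins lie at 1.48 to 1.88 in neutrophils against T cells as a share, and near 0 on the orange scale in all 3 panels, while the medians of all genes lie at -1.91, 0.37 and 2.23 there.

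The libraries differed in the mix of skin genes, and they kept their order in the 3 gates. The keratins made up 83.8%, 65.0%, 83.5% and 75.9% of the skin UMIs in neutrophils. They made up 78.1%, 50.2%, 76.2% and 67.0% in T cells and 69.1%, 45.1%, 67.2% and 61.3% in macrophages. Control 2 had the lowest keratin share in each gate, with a summed collagen level of 682, 414 and 300 CPM in neutrophils, T cells and macrophages, the highest of the 4 libraries.

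Pigment followed another order of libraries than collagen. The 3 pigment genes together stood at 49.5, 1.39, 52.3 and 9.57 CPM in neutrophils and at 37.9, 0.522, 27.9 and 2.82 CPM in T cells. Control 1 and hucMSC-Exo 1 were high and Control 2 and hucMSC-Exo 2 were low in each gate, for the pigment sum and the keratin sum alike. Among single genes the exceptions were Ptgds in neutrophils, listed at 0 in hucMSC-Exo 1, and Krt10 in macrophages, at 23.4 CPM in hucMSC-Exo 1 and 26.9 CPM in hucMSC-Exo 2. Krt10 in hucMSC-Exo 1 neutrophils rested on 1 cell with 47 of the 56 UMIs, and without the cells of 20 or more UMIs Krt10 in neutrophils stood at 265, 65.1, 56.8 and 93.8 CPM, with hucMSC-Exo 1 lowest. The collagens were highest in Control 2 for each gene and gate.

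Within the keratins, Krt14 made up 57.1% to 69.5% of the UMIs and Krt5 23.7% to 29.8% over the 12 gates and libraries. Krt10 marked out Control 1, where it was 13.8% to 16.3% of the keratin UMIs in every gate, against 5.04% to 6.80% in Control 2 and 8.12% to 10.9% in hucMSC-Exo 2. In hucMSC-Exo 1 it was 6.48% to 15.1%, with the highest value in the 68 neutrophils, where 2 cells held 55.9% of the keratin UMIs. Each collagen gene made up 24.2% to 45.5% of the collagen UMIs.

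The question of the study's design was whether hucMSC-Exo mice differed from Control mice. None of the skin genes passed in any gate: edgeR called 0 of 3961 genes in neutrophils, 0 of 10218 in T cells and 0 of 8692 in macrophages (0% each), with 73, 264 and 77 genes at an unadjusted p under 0.05. DESeq2 also called 0 in each gate, with 46, 95 and 44 at an unadjusted p under 0.05. Of the 9 skin genes, 6, 9 and 7 could be tested in the 3 gates. The counts of 0 did not hold in each fit that left 1 library out. Such a fit has a lone library in 1 group, so skin genes are given there by effect size only, and nothing is read from calls. Without Control 2, and so with Control 1 as the lone Control library, Krt10 in T cells had a log2 difference of -1.38. In macrophages Krt10 stood at -1.68 and Dct at -3.78 in that fit. Each was lower in hucMSC-Exo, against the 1 remaining Control library. Of the 116 Dct UMIs of the Control 1 macrophages, 98 came from 1 cell.

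The replicates of a group were far apart for these genes. In T cells Krt14 had a mean of 446 ± 220 CPM (SD, n = 2) in Control and 409 ± 168 CPM (SD, n = 2) in hucMSC-Exo, with a log2 difference of -0.02 ± 0.37 and a 95% interval from -0.75 to 0.71. Krt10 stood at -0.68 ± 0.58 (-1.82 to 0.47) there, and Dct at 0.08 ± 1.30 (-2.47 to 2.63). These intervals hold rises and falls alike, so they do not show that the groups had the same level.

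The groups did not overlap for a few collagen genes, in shares close to or below those of all genes. In T cells Col1a1 stood at 91.9 and 145 CPM in Control and 72.0 and 81.6 CPM in hucMSC-Exo, with a log2 difference of -0.56 ± 0.28 (-1.12 to -0.0030, edgeR adjusted p = 0.999). Col3a1 stood at 73.8 and 154 CPM against 64.1 and 73.4 CPM (-0.68 ± 0.38, -1.42 to 0.057, adjusted p = 0.999). In neutrophils Col3a1 stood at 148 and 214 CPM against 128 and 127 CPM (-0.47 ± 0.40, -1.26 to 0.32). Non-overlapping genes, with hucMSC-Exo lower, were 2 of 9 skin genes in T cells beside 21.4% of all genes tested, 1 of 9 in neutrophils beside 17.8%, and 0 of 9 in macrophages beside 14.7%. None had hucMSC-Exo higher, beside 9.35%, 12.3% and 8.35% of all genes. The 9 include pigment genes too low to test in neutrophils and macrophages, while the shares of all genes cover tested genes only. An exact permutation test of 2 against 2 libraries cannot go below p = 0.333.

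The pooled macrophage values show how 1 cell can set a group difference. Dct stood at 74.3 and 0 CPM in Control and 8.85 and 2.15 CPM in hucMSC-Exo (log2 difference -2.65 ± 1.67, -5.92 to 0.62), and without the cells of 20 or more UMIs at 0.31. The keratins stood at 0.05 ± 0.36 for Krt5, -0.02 ± 0.33 for Krt14 and -0.85 ± 0.69 for Krt10. The collagens stood at -0.02 ± 0.45, -0.12 ± 0.42 and -0.35 ± 0.39 in the order Col1a1, Col1a2 and Col3a1.

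Other genes of the same tissues were counted beside the skin genes. Of the 16 other keratinocyte genes, 15 were tested in neutrophils against T cells and 14 were called higher by edgeR, beside 20.5% of all genes, with a median log2 difference of 1.29 against -0.61 over all genes. They included Lgals7, a galectin of stratified epithelia (1.38 ± 0.23), Krt17, a keratin of wounded epidermis (1.29), and Sfn, an epithelial 14-3-3 protein (0.94). Per cell, 2 were called higher and 1 lower, beside 9.06% and 75% of all genes. In macrophages against T cells 11 of 15 were called lower, beside 30.7% of all genes. Per cell 1 was called higher and 2 lower there, beside 4470 and 1927 of all 9920 genes tested. In macrophages against neutrophils 15 of 15 were called lower, beside 24.3%, and 3 per cell, beside 3.68%. Their summed level was 2612, 1670, 3079 and 2107 CPM in neutrophils, 1435, 769, 1491 and 824 CPM in T cells and 685, 396, 632 and 485 CPM in macrophages, the same order of gates as for the keratins.

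Of the 18 other fibroblast genes, 8 of 12 tested were called higher in neutrophils than in T cells, beside 20.5% of all genes, and per cell 0 were called higher and 2 lower, beside 9.06% and 75%. Those called higher as a share included Postn (1.41), a matrix protein of healing dermis. Sparc (0.65) and Dcn (0.65), a matricellular protein and a small proteoglycan, were the other fibroblast genes of highest level. In macrophages 1 was called higher and 2 lower of 13 against T cells, beside 30.3% and 30.7% of all genes. Per cell 2 were called higher and 2 lower there, beside 4470 and 1927 of all 9920 genes tested. Against neutrophils 10 of 11 were called lower, beside 24.3%, and per cell 3 were called higher, beside 87.1%. Their summed level was 297, 460, 273 and 390 CPM in neutrophils, 277, 308, 241 and 208 CPM in T cells and 136, 265, 126 and 182 CPM in macrophages. Control 2 was the highest library in each gate, as it was for the collagens.

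Genes of skeletal muscle, which lies under mouse skin, had the same order of gates. All 5 muscle genes were called higher in neutrophils than in T cells, between 1.38 and 1.79, with Acta1 at 1.45, Mylpf at 1.67 and Tnnc2 at 1.45, beside 20.5% of all genes, and 0 of 5 were called per cell, beside 84%. Against T cells 0 of 5 passed in macrophages, beside 61% of all genes, and against neutrophils 5 of 5 were lower there, beside 24.3%, with 0 called per cell, beside 90.8%. The summed level was 564, 292, 58.1 and 406 CPM in neutrophils, 73.0, 166, 40.1 and 189 CPM in T cells and 33.3, 103, 19.8 and 159 CPM in macrophages, with hucMSC-Exo 1 lowest in each gate. That is a further order of libraries beside those of keratin and collagen.

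The 7 other melanocyte genes together stood at 19.8, 2.78, 29.0 and 6.96 CPM in neutrophils, 37.9, 13.8, 26.9 and 15.2 CPM in T cells and 24.3, 4.18, 5.21 and 4.66 CPM in macrophages, with the libraries in the order that Dct had in each gate. Only Slc24a5, an exchanger of melanosomes, was high enough to test, and it was called lower in neutrophils than in T cells (-2.90 ± 0.71) and lower in macrophages than in T cells (-2.08 ± 0.29), also per cell (-4.06 and -1.68). In T cells it stood at 16.1, 13.0, 15.8 and 13.3 CPM, close between the libraries, where Dct ranged from 0.261 to 19.4 CPM. Of the red cell genes Hba-a1 was the 1 seen, at 0 to 1.21 CPM, too low to test.

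The genes whose level was most like each class over the 12 gates and libraries were sought among 5562 genes with a count in each. Likeness was Pearson's r of log2(CPM + 1), given as a description, since points of a library share its cells and points of a gate share its depth. For the keratins these were Ggct (r = 0.98), Lgals7 (0.98), Col17a1 (0.98) and S100a14 (0.97). Col17a1 is a collagen of the basal keratinocyte's anchor to the dermis and S100a14 an epithelial calcium-binding protein. For the collagens they were Cpne1 (0.95), Tes (0.91), Rc3h2 (0.90) and Vps13d (0.90), and for the pigment genes Rab24 (0.82), Hes1 (0.79), Krt77 (0.77) and Wwc2 (0.77), a weaker likeness.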

How the data were processed

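Single-cell libraries were prepared by the authors with 10x 3' chemistry and counted, per the submitters' processing notes, with Cell Ranger 6.1.2 on mm10. The deposited values are UMI counts per gene and cell, not normalized, for 1098, 2422, 1539 and 2119 cells with at least 500 UMIs each (6657095 and 16950639 UMIs in the Control libraries, 8198377 and 10270615 in the hucMSC-Exo libraries), fewer cells than the study states. 0 to 2 cell barcodes were shared by any pair of libraries. The 9 genes and all other lists were chosen with earlier results of these data known.

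Cells with under 200 or over 3000 detected genes or over 10% mitochondrial UMIs were left out, after the study's filter. No doublet caller was run. Gates used 8 markers each, of which 7 neutrophil markers were listed in all libraries. Cells are not replicates, so the test used the UMI sum of each gate in each library. Each library is 1 mouse, and p-values rest on 2 libraries per group or, between gates, on 4 libraries. Sums were fitted across all genes with edgeR 4.0.16 in R 4.3.3 (TMM, filterByExpr, quasi-likelihood, Benjamini-Hochberg adjusted p under 0.05) and, as an alternative, with DESeq2 1.42.0. The study compared cells with a Wilcoxon test. Per cell scaling used the number of cells as library size. Thinned shares are the expected shares at 1000 UMIs per cell. Intervals of shares are exact (Clopper-Pearson, 95%) and, like the limit of 3 counts, cover counting error only. Those of log2 differences are the SE of the edgeR fit times a normal multiplier for 95%. With 2 libraries per group they are too narrow, so an interval that just leaves out 0 is not read as a difference.

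Named genes are all 9 skin genes, the 3 genes of highest summed CPM in each other list and the 4 genes most like each class. Slc24a5 and Hba-a1 are the single genes of their lists that were tested or seen. Positions are from GENCODE M21 on GRCm38. In counts drawn from the real libraries with known changes, the test found 45% to 60% of genes changed by 1 and 89% to 99% of those changed by 2 on the log2 scale between gates, and 9% to 17% and 77% to 91% between groups. Alternatives covered the scaling, the filter on low counts, the gate, the cells left out, each replicate left out, the library or replicate block and DESeq2.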

Additional observations from a re-analysis of the deposited data

Results flagged for a closer look

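The cells left out by the quality filter held a collagen signal that no comparison above used. There were 146 and 348 such cells in the Control libraries and 123 and 118 in the hucMSC-Exo libraries. Of these, in the same order, 106, 281, 75 and 69 had over 3000 detected genes and 40, 69, 48 and 49 had over 10% mitochondrial UMIs, and 134, 302, 101 and 97 had a Ptprc UMI. Their collagen levels stood above those of the Control libraries in both hucMSC-Exo libraries.

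Col1a1 stood at 33.6 CPM in Control 1, 155 in Control 2, 266 in hucMSC-Exo 1 and 866 in hucMSC-Exo 2. Col1a2 stood at 29.8, 118, 282 and 883 CPM, and Col3a1 at 43.1, 105, 279 and 656 CPM. The groups did not overlap for these 3 genes, and with 2 libraries a group no test was run. The share of all genes that did not overlap in the left-out cells was not computed, so nothing is read from these 3.

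Few cells carried the difference. The left-out cells with 20 or more collagen UMIs numbered 1, 10, 5 and 4, and they held 11.5%, 50.4%, 88.2% and 93.6% of the collagen UMIs of the left-out cells. Without them the summed collagen level was 94.9, 190, 104 and 168 CPM, with overlapping groups. Of these 20 cells, 19 had a Ptprc UMI and 19 had at least 2 markers of an immune gate. What these cells were was not tested.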

How the results depend on the processing

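Over all alternatives, the 23 tested values of the skin genes between gates kept direction and side of the threshold in 260 of 324 cases and the 22 between groups in 219 of 284, and 25 of the 34 reversals between gates came with scaling to cells. No cause of a change was tested where the construction of the alternative does not show it. The summed levels of the classes moved by more than the spread between libraries in 26 of 180 cases. The low UMI counts limit the pigment genes: 5 to 11 pigment UMIs were all that 3 of the 4 neutrophil gates held, and 1 in the other.

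The values that follow are log2 differences. Scaled to cells, neutrophils against T cells gave Pmel -0.0086, Col1a1 -0.32, Col1a2 -0.18 and Col3a1 -0.15 (805 genes called higher and 6664 lower, against 1822 and 3712). Macrophages against T cells gave Krt5 0.038, Col1a1 0.24, Col1a2 0.31 and Col3a1 0.19 (4470 higher and 1927 lower, against 3007 and 3044). Macrophages against neutrophils gave Dct 1.13, Col1a1 0.61, Col1a2 0.52 and Col3a1 0.36, with 6562 genes called (6296 higher and 266 lower) against 3679 (1925 and 1754). Without the cells of 20 or more UMIs as well, an alternative added after seeing the data, neutrophils against T cells gave Krt14 -0.12, Col1a1 -0.17, Col1a2 -0.11 and Col3a1 -0.073. Macrophages against T cells then gave Krt5 0.11, Col1a1 0.47, Col1a2 0.46 and Col3a1 0.31. Macrophages against neutrophils gave Krt5 0.055, Krt14 0.075, Col1a1 0.66, Col1a2 0.59 and Col3a1 0.40, with 6516 genes called. Leaving out those cells alone, also added, turned Dct to -0.32, Col1a1 to 0.065 and Col1a2 to 0.053 in macrophages against T cells. Between groups it turned Krt5 to -0.10, Krt14 to -0.089 and Krt10 to -0.65 in neutrophils, Pmel to 0.0038 and Col1a2 to 0.025 in T cells, and Dct to 0.31, Krt14 to 0.023 and Col1a1 to 0.00064 in macrophages.

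With gates that allowed no marker of another type, macrophages against T cells gave Dct -0.089 and Col1a2 0.085, and the groups gave Krt5 -0.025 and Krt14 -0.056 in neutrophils and Krt14 0.0025 and Col1a1 0.034 in macrophages. With at least 3 markers, the groups gave Pmel 0.13 in T cells and Col1a1 0.024 in macrophages. With all deposited cells, Dct in macrophages against T cells was -0.060, and the groups gave Krt5 -0.39, Krt14 -0.35 and Col1a2 0.0017 in neutrophils. In T cells they gave Dct -0.18, Krt14 0.086, Col1a1 0.082, Col1a2 0.46 and Col3a1 0.30, and in macrophages Krt14 0.035, Col1a1 1.72, Col1a2 1.82 and Col3a1 1.26. Neutrophils against T cells then had 2102 genes called higher and 2202 lower. Without the 10% of cells with most UMIs, Krt10 was -0.56 between groups in neutrophils and Col1a1 0.047 in macrophages. Without the library block, Dct in macrophages against neutrophils was 0.86. With no filter on low counts, 8, 52 and 24 genes were called between groups in neutrophils, T cells and macrophages, and Krt14 in macrophages was 0.019. DESeq2 gave Col1a1 0.0032 between groups in macrophages.

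The replicate block made 19 genes called between groups in T cells and 0 in the other gates, and gave Pmel 0.068 in T cells and Krt14 0.031, Col1a1 0.17 and Col1a2 0.035 in macrophages. No label ties same-numbered samples to a shared animal or day, though their matrix names share a letter, and their deviations from the group means correlated at -0.066 in neutrophils, 0.18 in T cells and -0.22 in macrophages. With the numbers crossed, an alternative added after seeing the data, 10 genes were called in macrophages.

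With 1 library left out at a time, the genes called ranged from 3413 (without Control 2) to 5373 in neutrophils against T cells and from 2441 (without hucMSC-Exo 2) to 3801 in macrophages against neutrophils. In macrophages against T cells, Col1a1 ranged from -0.29 to 0.081 and Col1a2 from -0.18 to 0.059. Between groups, 0 to 12 genes were called in neutrophils, 0 to 184 in T cells and 0 to 163 in macrophages, each such fit leaving a lone library that is assumed to vary like the other group. In neutrophils Krt5 ranged from -0.14 to 0.74, Krt14 from -0.30 to 0.64, Col1a1 from -1.003 to 1.01, Col1a2 from -0.84 to 0.65 and Col3a1 from -0.78 to 0.10. In T cells Dct ranged from -2.04 to 4.87, Pmel from -2.24 to 3.76, Ptgds from -6.66 to 0.21, Krt5 from -0.39 to 0.77, Krt14 from -0.48 to 0.49, Krt10 from -1.38 to 0.70, Col1a2 from -0.59 to 0.24 and Col3a1 from -1.16 to 0.070. In macrophages Dct ranged from -3.97 to 7.07, Krt5 from -0.38 to 0.67, Krt14 from -0.37 to 0.46, Krt10 from -1.68 to 0.89, Col1a1 from -0.56 to 1.01, Col1a2 from -0.61 to 0.78 and Col3a1 from -0.78 to 0.39.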

Other observations

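Keratin in the left-out cells was likewise held by few cells. The summed keratin level there was 772 and 446 CPM in the Control libraries and 615 and 2341 CPM in the hucMSC-Exo libraries. The 41 left-out cells with 20 or more keratin UMIs, 8, 13, 9 and 11 by library, held 52.1%, 66.6%, 64.5% and 89.4% of it. The level of hucMSC-Exo 2 was the highest for keratin as for collagen.

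The letters c and t that name the count matrices, and that cross the titles' groups, also split the libraries as the summed pigment and keratin genes did. Control 1 and hucMSC-Exo 1, both marked c, were above Control 2 and hucMSC-Exo 2, both marked t, in all 3 gates. The neutrophil gate held 47 and 68 cells in the libraries marked c and 285 and 442 in those marked t. What the letters stand for is not given in the sources used here, and letter and replicate number cannot be told apart. If the titles rather than the matrix names are crossed, the differences between groups given above do not compare the treatments.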
